A study of Caenorhabditis elegans with 12 samples.

Results

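mir-60, mir-240 and mir-786 are 3 microRNA hairpins of *C. elegans* that are expressed in the intestine or, for the mir-240 and mir-786 cluster, also in the somatic gonad. They were chosen by name, as every line of the count table whose hairpin is 1 of the 3. This gave 6 arms out of 368 mature microRNAs, from 3 of 223 hairpins. 5 of the 6 arms passed the filter on low counts, along with 240 other microRNAs to make 245 tested. The arm that did not pass, miR-786-5p, is described by its counts only. Whole worms of the wild-type strain N2, with no transgene or drug named for any group, were collected on day 1, 7, 14 or 21 of adulthood, with 3 replicates at each age and 12 libraries in all. Each replicate was a pool of handpicked worms, and worms that had died, burst or hatched progeny internally were removed beforehand, so the older groups hold survivors.

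A microRNA hairpin is cut into a duplex, and usually 1 strand is loaded into an Argonaute protein while the other, the minor arm, is degraded. The loaded strand pairs through its seed, near its 5′ end, with target mRNAs and lowers their output. mir-60 is known as an intestinal microRNA that shapes the adaptive response to oxidative stress. mir-786 acts in posterior intestinal cells, where it helps set the place and rhythm of the calcium waves that drive defecation. mir-240 is its neighbour, and the pair is related to the vertebrate mir-193 and mir-365 cluster.

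In the Ensembl annotation of genome build WBcel235, mir-60 (WBGene00003288) lies on the minus strand of chromosome II at II:6328702-6328799, with miR-60-5p at 6328756-6328778 and miR-60-3p at 6328717-6328739. The non-coding RNA C32D5.15 runs antisense over 86 bases of it. The nearest protein-coding genes are sma-6, 1346 bases away, and set-4, 1038 bases away, so the hairpin lies outside both. mir-240 (WBGene00003334) lies on the plus strand at X:7882622-7882718 and mir-786 (WBGene00045343) on the same strand at X:7882751-7882840. Only 32 bases separate the 2 hairpins, which together span 219 bases between C39D10.8, 1673 bases from mir-240, and pcyt-2.2, 1453 bases from mir-786. A further annotated hairpin, mir-8203, runs antisense over 61 bases of mir-786. Whether strand was used in counting is not given in the sources used here. It is therefore not known whether reads of mir-60 or mir-786 were told apart from those of an antisense transcript.

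**Figure D1:**
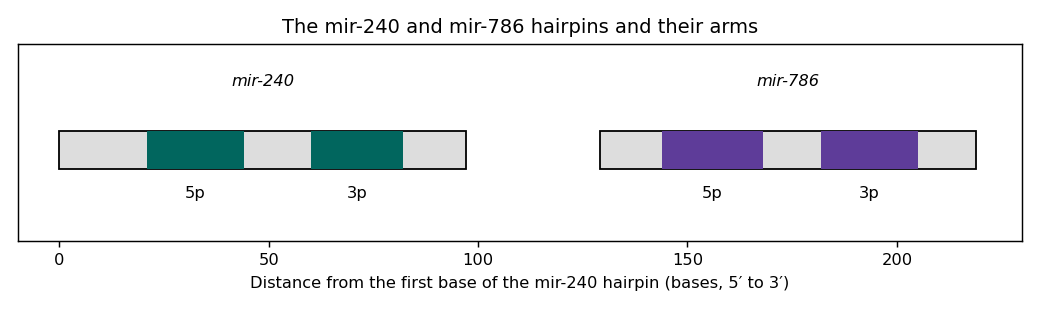
The mir-240 and mir-786 hairpins drawn to scale as grey boxes along the plus strand, with the mature arms coloured and the axis in bases from the first base of mir-240. The 2 hairpins lie 32 bases apart, and the 5p arm precedes the 3p arm in both.

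Library totals were 5784056 to 16867232 counts on day 1, 7320594 to 7897687 on day 7, 6652468 to 7388727 on day 14 and 6042140 to 11348110 on day 21. Levels are given as CPM (counts of an arm scaled to a common library size) after TMM scaling, which corrects for a few abundant microRNAs taking up much of a library. By correlation of log2 levels with the mean of each age, 3 libraries were nearer to another age than to their own. Day 14 replicate 1 was nearer to day 21 (r = 0.993 against 0.986), while day 21 replicate 1 (r = 0.993 against 0.987) and day 21 replicate 2 (r = 0.992 against 0.991) were nearer to day 14. Values without the replicate 1 libraries of both ages are given where they bear on a result. No other label divides the libraries into batches.

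The 3 hairpins moved in opposite directions. Both arms of mir-60 were lower on days 14 and 21 than on day 1, while miR-786-3p and both arms of mir-240 were higher. In edgeR's quasi-likelihood test, with p-values adjusted by Benjamini-Hochberg over all 245 microRNAs and a threshold of 0.05, all 5 tested arms passed over the 4 ages, as did 74.3% of all microRNAs tested. Adjusted p was 4.8e-06 for miR-240-5p, 2.5e-05 for miR-786-3p, 7.4e-04 for miR-60-5p, 0.0028 for miR-60-3p and 0.0038 for miR-240-3p.

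miR-60-3p, the major arm of mir-60, stood at 453, 159 and 545 CPM in the 3 libraries of day 1. It was at 268, 375 and 204 CPM on day 7, at 69.0, 86.0 and 121 CPM on day 14, and at 185, 68.6 and 158 CPM on day 21. Day 1 replicate 2 was well below the other 2 day 1 libraries, so day 1 overlapped day 7 and, by that library, day 21, but not day 14. The means were 386 ± 202 CPM on day 1, 282 ± 86.3 on day 7, 92.0 ± 26.5 on day 14 and 137 ± 61.0 on day 21 (SD, n = 3). Its log2 fold change against day 1 was −0.45 (SE 0.43, edgeR adjusted p = 0.454) on day 7, −2.07 (SE 0.45, edgeR adjusted p = 0.0011) on day 14 and −1.49 (SE 0.44, edgeR adjusted p = 0.0080) on day 21. The day 14 call held in every alternative tried (adjusted p up to 0.0092), whereas the day 21 call was lost without day 1 replicate 3 (log2 fold change −1.26, edgeR adjusted p = 0.0524).

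miR-60-5p, the minor arm, was rare throughout. It was counted 55, 9 and 41 times on day 1, 11, 12 and 10 times on day 7, once in each library of day 14, and 11, 0 and 1 times on day 21. Its mean level was 2.48 ± 0.924 CPM on day 1, 1.40 ± 0.0973 on day 7, 0.163 ± 0.0219 on day 14 and 0.363 ± 0.498 on day 21 (SD, n = 3). Pooled over libraries, 105 counts on day 1 against 3 on day 14 gave a ratio of levels of 16.4 (95% interval 5.47 to 80.9), and 12 counts on day 21 gave a ratio of 5.31 (95% interval 2.91 to 10.6). These intervals cover counting error only.

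The miR-60-5p libraries of days 7, 14 and 21 were all below those of day 1. The day 7 difference from day 1 was −0.87 on the log2 scale (SE 0.49, edgeR adjusted p = 0.175), beside −3.87 (SE 0.74, edgeR adjusted p = 3.7e-04) on day 14 and −2.44 (SE 0.57, edgeR adjusted p = 0.0016) on day 21. Day 21 replicate 1 held 11 of the 12 counts of its age, and without it the day 21 value was −4.89. Leaving out that library, which also changes the spread shared by all ages, took the day 7 comparison just past the threshold (log2 fold change −0.98, edgeR adjusted p = 0.0498).

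miR-786-3p, the strand that acts in the defecation rhythm, was higher at each later age than on day 1. It was at 537, 560 and 641 CPM on day 1, 946, 1053 and 921 CPM on day 7, 1981, 1440 and 1613 CPM on day 14, and 1593, 2000 and 2832 CPM on day 21. Every library of day 7 lay above day 1, and every library of days 14 and 21 lay above day 7, while days 14 and 21 overlapped. Its rank among the microRNAs of a library went from 49 to 52 on day 1 to 40 to 42 on day 21. The mean rose from 579 ± 54.6 CPM on day 1 to 973 ± 70.0 on day 7, 1678 ± 276 on day 14 and 2142 ± 632 on day 21 (SD, n = 3).

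The log2 fold change of miR-786-3p against day 1 was 0.75 (SE 0.23, edgeR adjusted p = 0.017) on day 7, 1.53 (SE 0.23, edgeR adjusted p = 4.7e-05) on day 14 and 1.89 (SE 0.23, edgeR adjusted p = 6.6e-06) on day 21. The later calls held in every alternative. The day 7 call was lost in 11 of 21 alternatives, with adjusted p between 0.0077 and 0.140, among them the removal of each day 1 library in turn and of day 7 replicate 2 or 3.

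miR-786-5p, the minor arm, had 4, 1 and 5 counts on day 1, 2, 4 and 3 on day 7, 2, 4 and 5 on day 14, and 10, 2 and 4 on day 21. Sums of 10, 9, 11 and 16 counts corresponded to mean levels of 0.238, 0.375, 0.576 and 0.606 CPM. The ratio of the day 21 to the day 1 level was 2.64 (95% counting interval 1.13 to 6.50). The libraries of the 2 ages did not overlap in CPM, as was so for 73.5% of the microRNAs tested. The gap was small, since day 21 replicate 2 stood at 0.334 CPM on 2 counts, against up to 0.264 CPM on day 1. The arm made up 0.0412% ± 0.00638 of the hairpin's counts on day 1 and 0.0308% ± 0.0196 on day 21 (SD, n = 3). A change in that share was not detectable at these counts.

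miR-240-3p, the more abundant arm of mir-240 on day 1, was at 519, 510 and 697 CPM on day 1 and 707, 661 and 629 CPM on day 7. It was at 1027, 914 and 1342 CPM on day 14 and 1056, 864 and 1626 CPM on day 21. Days 1 and 7 overlapped, days 14 and 21 overlapped, and every library of the later pair was above every library of the earlier pair. The means were 575 ± 105, 666 ± 38.9, 1094 ± 221 and 1182 ± 396 CPM in order of age (SD, n = 3). Relative to day 1 it was 0.21 higher on the log2 scale on day 7 (SE 0.25, edgeR adjusted p = 0.557), with log2 fold changes of 0.93 (SE 0.25, edgeR adjusted p = 0.0051) on day 14 and 1.04 (SE 0.25, edgeR adjusted p = 0.0021) on day 21.

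The rise of miR-240-3p was the least secure of the members. The day 14 call was lost without day 1 replicate 1 (0.79, edgeR adjusted p = 0.0584), day 1 replicate 2 (0.72, edgeR adjusted p = 0.0631) or day 14 replicate 3 (0.60, edgeR adjusted p = 0.0993), and with scaling by total counts alone (0.63, edgeR adjusted p = 0.0930). The day 21 call was lost without day 21 replicate 3 (0.60, edgeR adjusted p = 0.0623).

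miR-240-5p had the largest rise of the 5 tested arms against day 1 at each later age. It was at 67.4, 104 and 81.1 CPM on day 1, 321, 266 and 332 CPM on day 7, 2070, 886 and 768 CPM on day 14, and 663, 1603 and 1058 CPM on day 21. Every library of day 7 was above every library of day 1, and every library of days 14 and 21 was above day 7. Day 14 replicate 1 was the highest of the 12 and day 21 replicate 1 the lowest of the 6 oldest. The means were 84.3 ± 18.7, 306 ± 35.3, 1241 ± 720 and 1108 ± 472 CPM in order of age (SD, n = 3).

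The log2 fold change of miR-240-5p against day 1 was 1.86 (SE 0.38, edgeR adjusted p = 0.0014) on day 7, 3.88 (SE 0.42, edgeR adjusted p = 1.9e-06) on day 14 and 3.72 (SE 0.41, edgeR adjusted p = 2.4e-06) on day 21. These are 3.64-fold, 14.7-fold and 13.2-fold. The 3 calls held in every alternative, with adjusted p of at most 0.0095, 3.1e-05 and 1.3e-04.

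**Figure D2:**
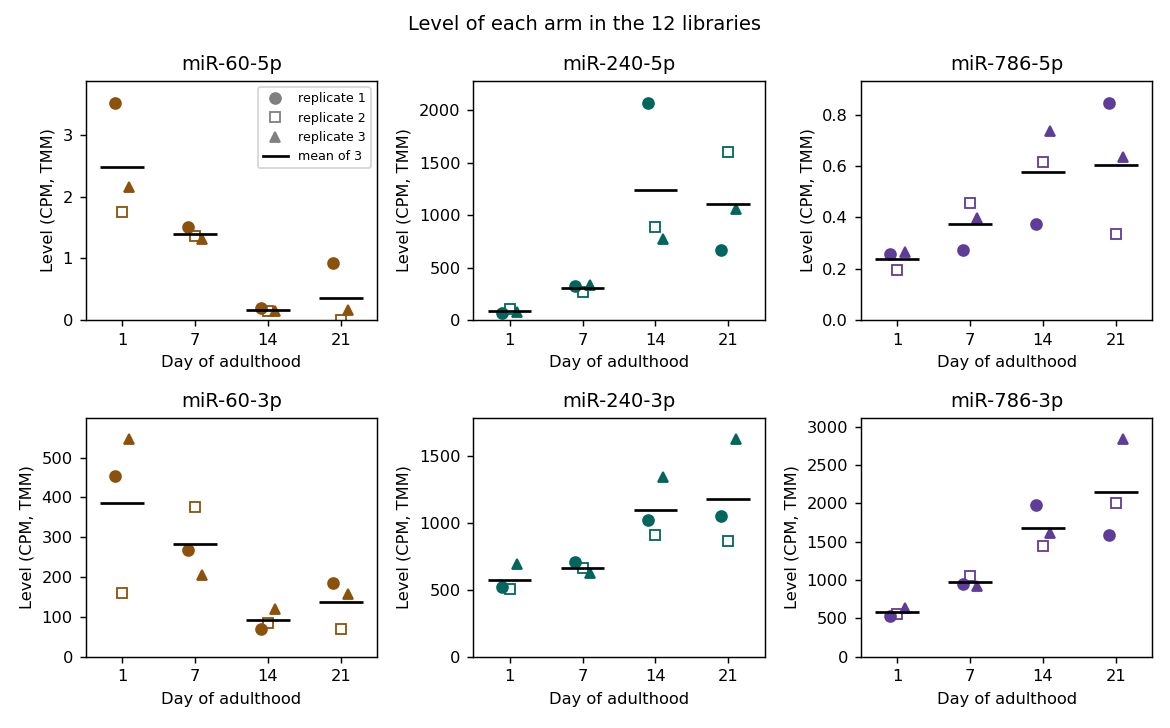
Level of each of the 6 arms in TMM-scaled CPM (linear y axes from 0, a separate scale in each panel) by day of adulthood, with 1 symbol per library and a line at the mean of 3. Both arms of mir-60 lie lower on days 14 and 21, while miR-240-5p goes from 67.4 to 104 CPM on day 1 to 663 to 2070 CPM on days 14 and 21.

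Counted over the members, 2 of 5 tested arms were higher and 0 lower on day 7 than on day 1, where 21.2% of all microRNAs tested were called higher and 18.0% lower. On day 14, 3 were higher and 2 lower, against 34.3% and 34.7% of all, and on day 21 the counts were again 3 and 2, against 35.1% and 35.9%. The libraries of 3, 5 and 4 of the 5 arms did not overlap with day 1 on days 7, 14 and 21, where 54.7%, 69.8% and 73.5% of all microRNAs did not overlap. The median log2 fold change of the 5 arms was 0.21, 0.93 and 1.04, beside −0.01, −0.12 and −0.06 over all 245. At each age this median was the value of miR-240-3p, since the mir-60 arms lay below 0 and the others above. With calls that frequent, the number of calls among 5 arms is near the background.

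**Figure D3:**
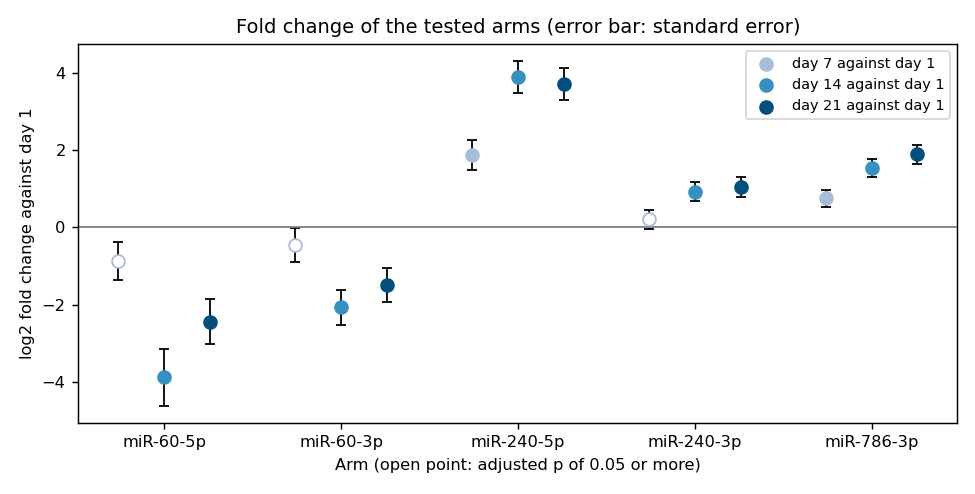
Log2 fold change of the 5 tested arms against day 1 (y axis) with its standard error as the bar, 3 points per arm for days 7, 14 and 21, filled where the adjusted p is under 0.05. Both mir-60 arms lie below 0 and the mir-240 and mir-786 arms above it, with miR-240-5p highest at 3.88 on day 14.

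Day 14 was compared with day 7, around the end of reproduction, to see what moved after it. All 5 arms were past the threshold, 3 higher and 2 lower, where 24.1% of all microRNAs were called higher and 17.1% lower. The log2 fold change was 2.02 for miR-240-5p (SE 0.39, edgeR adjusted p = 0.0013), 0.79 for miR-786-3p (SE 0.23, edgeR adjusted p = 0.013) and 0.72 for miR-240-3p (SE 0.25, edgeR adjusted p = 0.034). It was −1.62 for miR-60-3p (SE 0.45, edgeR adjusted p = 0.010) and −3.01 for miR-60-5p (SE 0.81, edgeR adjusted p = 0.0090). The miR-240-5p and miR-60-5p calls held in every alternative that could test them. The other 3 each failed in some: miR-60-3p without day 7 replicate 2, day 14 replicate 1 or day 14 replicate 2, or without the replicate 1 libraries of days 14 and 21 together (adjusted p up to 0.0931), miR-786-3p without day 7 replicate 1, day 7 replicate 3 or day 14 replicate 1 or with scaling by total counts alone (up to 0.0999), and miR-240-3p in 11 of 21 alternatives (up to 0.200).

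Against day 7, day 21 gave 3 arms higher and 1 lower, where 27.3% of all microRNAs were higher and 24.9% lower. miR-240-5p was 1.85 higher on the log2 scale (SE 0.38, edgeR adjusted p = 0.0013) and miR-786-3p 1.14 higher (SE 0.23, edgeR adjusted p = 0.0011), and both calls held throughout. miR-240-3p was 0.83 higher (SE 0.25, edgeR adjusted p = 0.014), a call lost in 5 of 21 alternatives. The mir-60 arms sat at the threshold: miR-60-5p was at −1.57 (SE 0.62, edgeR adjusted p = 0.048), lost in 14 of 20 alternatives, and miR-60-3p at −1.04 (SE 0.44, edgeR adjusted p = 0.060), past the threshold in 6 of 21.

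Between days 14 and 21 none of the 5 arms passed, and neither did any microRNA (0% called in either direction by edgeR and 0 by DESeq2, with 12 of 245 at an unadjusted p under 0.05). The log2 differences were −0.16 for miR-240-5p (SE 0.37), 0.11 for miR-240-3p (SE 0.25), 0.35 for miR-786-3p (SE 0.23), 0.58 for miR-60-3p (SE 0.44) and 1.44 for miR-60-5p (SE 0.95). Without the replicate 1 libraries of both ages, an alternative chosen after seeing the data, 5 microRNAs were higher and 28 lower, none of them among the 5 arms. miR-240-5p then stood at 0.57 (edgeR adjusted p = 0.130) and miR-60-5p at −0.87 (edgeR adjusted p = 0.787), both with the opposite sign.

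Ratios of 2 arms within a library do not depend on library scaling, and were taken as log2 ratios of counts with a pseudocount of 0.5. 3 libraries against 3 cannot go below p = 0.1 in the two-sided exact permutation test, so each ratio was also tested over the 4 ages by an exact one-way F test over 15400 partitions, a test chosen after seeing the data and adjusted over 6 ratios.

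The 5p arm made up 13.0% ± 3.52 of the mir-240 counts on day 1, 31.5% ± 2.93 on day 7, 50.8% ± 15.3 on day 14 and 47.7% ± 15.0 on day 21 (SD, n = 3). By library the share ran from 10.4% to 17.0% on day 1 and from 28.7% to 34.5% on day 7, then from 36.4% to 66.8% on day 14 and from 38.6% to 65.0% on day 21. All 9 later libraries were therefore above all 3 of day 1, and the oldest ages were the most variable. The log2 ratio of miR-240-5p to miR-240-3p was 1.65, 2.83 and 2.65 higher than on day 1 on days 7, 14 and 21 (exact permutation p = 0.1 each, the smallest possible, 0.18 adjusted over 18 comparisons). Over the 4 ages the exact p was 0.0036 (F = 10.9, adjusted p = 0.0071).

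The other minor arms did not follow. The log2 ratio of miR-60-5p to miR-60-3p was 0.43, 1.40 and 1.75 below day 1 at the 3 later ages, with overlapping libraries at each (exact permutation p = 0.4, 0.2 and 0.2), and its exact p over the 4 ages was 0.080 (F = 3.30, adjusted p = 0.0963). The day 14 overlap came from the pseudocount, as each library of that age held 1 count of miR-60-5p. Without a pseudocount, the 5p share was 0.395% to 1.09% of the mir-60 counts on day 1 and 0.122% to 0.272% on day 14. That of miR-786-5p to miR-786-3p gave an exact p of 0.445 (F = 1.08). Among 82 hairpins with both arms tested, the minor-to-major log2 ratio had a median change against day 1 of −0.16 on day 7, −0.93 on day 14 and −1.20 on day 21. It rose in 22 of 82 on day 21. The change of miR-240 ranked 4, 2 and 4 from the largest at the 3 ages, and that of miR-60 ranked 54, 55 and 58.

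**Figure D4:**
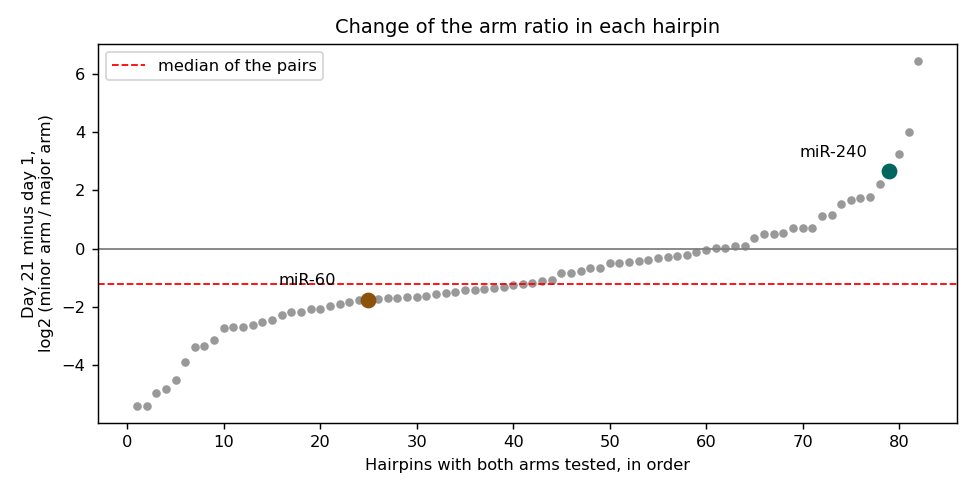
Change from day 1 to day 21 in the log2 ratio of minor to major arm (y axis) for 82 hairpins in order of the change (x axis), with the median of −1.20 as a dashed line. miR-240 is the hairpin ranked 4 from the top, at 2.65, and miR-60, ranked 58, lies below the median at −1.75.

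The 2 cluster hairpins were also compared with each other. On day 1 miR-240-3p and miR-786-3p were counted about equally, with a mean log2 ratio of −0.02 ± 0.13 (SD, n = 3). The ratio was −0.55 ± 0.12 on day 7, −0.62 ± 0.34 on day 14 and −0.87 ± 0.31 on day 21, and all 9 later libraries were below all 3 of day 1 (exact permutation p = 0.1 at each age). Over the 4 ages the exact p was 0.017 (F = 6.14, adjusted p = 0.025). miR-786-3p thus gained on miR-240-3p, while the sum of both mir-240 arms went from 660 ± 103 CPM on day 1 to 2290 ± 506 on day 21, beside 580 ± 54.6 and 2142 ± 632 for mir-786 (SD, n = 3). Neighbouring hairpins within 10 kb were compared by the most abundant tested arm of each. Among 38 such pairs, the median absolute difference in log2 fold change was 0.65, 0.87 and 1.33 at the 3 ages. That of miR-240-3p and miR-786-3p was 0.54, 0.61 and 0.85, ranked 17, 13 and 13 from the smallest. These differences are for the major arms only: miR-240-5p changed by 1.86, 3.88 and 3.72, beside 0.75, 1.53 and 1.89 for miR-786-3p.

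miR-60-3p parted from both. On day 1 its log2 ratio to miR-786-3p was −0.77 ± 0.91, on day 7 −1.83 ± 0.34, on day 14 −4.21 ± 0.57 and on day 21 −4.04 ± 0.89 (SD, n = 3). The libraries of days 14 and 21 were all below those of day 1 (exact permutation p = 0.1), and the exact p over the 4 ages was 0.0020 (F = 16.8, adjusted p = 0.0060). The ratio to miR-240-3p gave differences from day 1 of −0.54, −2.85 and −2.43 and an exact p of 0.0019 (F = 18.6, adjusted p = 0.0060).

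**Figure D5:**
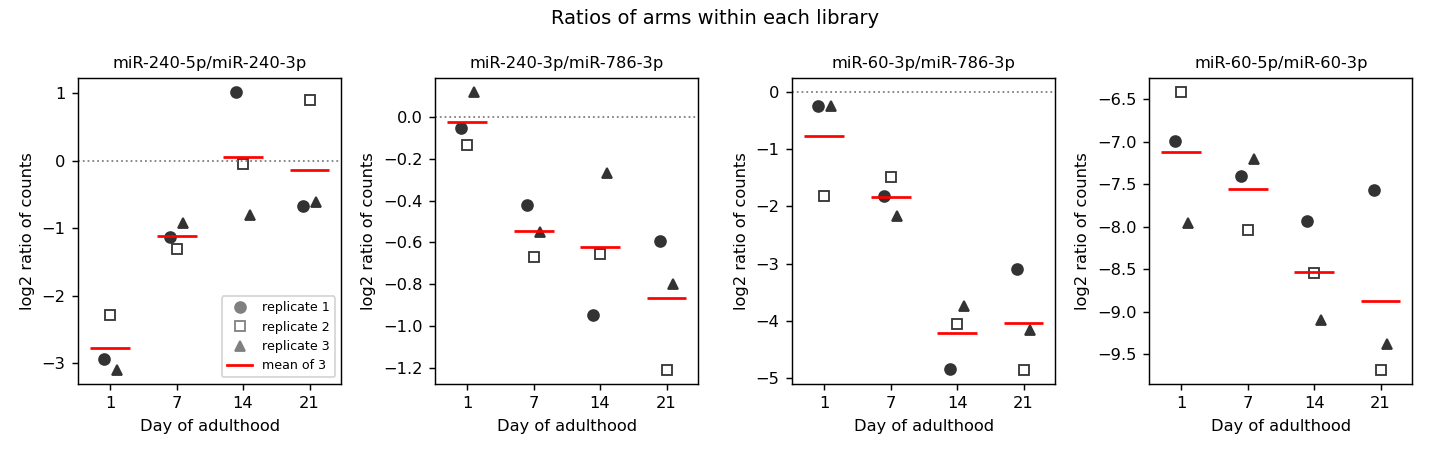
Log2 ratio of counts of 2 arms within each library (y axis, pseudocount 0.5, a separate scale in each panel) by day of adulthood, with 1 symbol per library and a line at the mean of 3. miR-240-5p nears or passes miR-240-3p on days 14 and 21, and miR-60-3p falls to a mean log2 ratio of −4.21 to miR-786-3p on day 14.

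Over the 12 libraries, the microRNAs of other hairpins whose log2 level was most like that of each major arm were, for miR-60-3p, miR-48-5p (Pearson r = 0.962), miR-252-5p (0.952) and miR-1829b (0.950). For miR-240-3p they were miR-53-5p (0.923), miR-49-3p (0.910) and miR-52-5p (0.906). For miR-786-3p they were miR-239a-5p (0.984), miR-239b-5p (0.983) and miR-43-3p (0.978). For miR-240-5p, looked up after its values were seen, they were miR-231-3p (0.986), miR-2208a-5p (0.985) and miR-4807 (0.984). These are descriptions over libraries that share age and depth.

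Because the RNA came from whole worms, fewer cells of a type and less RNA per cell cannot be told apart. mir-83, a microRNA of the intestine and of neurons, had 2 of 2 arms higher on day 7 and 1 of 2 on days 14 and 21, where 21.2%, 34.3% and 35.1% of all microRNAs tested were called higher. Its summed level was 59.6 to 109 CPM on day 1 and 242 to 368 CPM on day 21, and miR-83-3p was 1.12, 1.28 and 2.22 above day 1 on the log2 scale (edgeR adjusted p = 0.029, 0.0090 and 1.7e-04).

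Markers of other cells moved with age as well, and their part in the results was not tested. Of 15 tested arms of the mir-35 to mir-42 hairpins, which mark germline and embryos, 9, 10 and 9 were higher and 0, 3 and 3 lower on days 7, 14 and 21, beside 21.2%, 34.3% and 35.1% higher and 18.0%, 34.7% and 35.9% lower of all microRNAs tested. The summed level of all 16 arms of these hairpins was 18792 to 22414 CPM on day 1 and 191163 to 249232 CPM on day 21. miR-1-3p, a muscle microRNA, was 0.78 and 0.75 below day 1 on days 14 and 21 (edgeR adjusted p = 0.0059 and 0.0068). The other arm, miR-1-5p, was 0.37 and 0.39 above day 1 (edgeR adjusted p = 0.139 and 0.111). Of the 2 arms, 0 were called higher and 1 lower on each of these days, beside the same shares of all microRNAs. The summed level of mir-1 went from 12315 to 13525 CPM on day 1 to 5843 to 8897 CPM on day 21. The 5 neuronal arms counted summed to 29.7 to 51.2 CPM on day 1 and 55.7 to 75.8 CPM on day 21. Of the 4 that were tested, 2 were higher and 1 lower on that day, where 35.1% of all were higher and 35.9% lower. The 2 arms of mir-228, of glia and hypodermis, summed to 14985 to 27458 CPM on day 1 and 19544 to 38004 CPM on day 21, with 0 higher and 1 lower against the same shares.

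Of the wider lists, 19 tested arms of gonad and germline hairpins, most of them the mir-35 to mir-42 arms just described, were higher in 13, 13 and 12 cases and lower in 0, 3 and 3. Of 18 tested arms of hairpins tied to lifespan and stress, 7, 8 and 8 were higher and 5 lower at each age. Of all microRNAs tested, 21.2%, 34.3% and 35.1% were higher and 18.0%, 34.7% and 35.9% lower at these ages, and the lifespan and stress counts of days 14 and 21 lie near those shares. The median log2 fold change of these 2 lists on day 21 was 2.62 and 0.58, beside −0.06 over all microRNAs tested.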

How the data were processed

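Small RNA of whole N2 worms was sequenced by BGI. The authors aligned reads with TopHat, assigned them to known microRNAs with miRDeep and deposited raw read counts per mature microRNA. The table also held their normalised values, and further files held the authors' own DESeq comparisons (fold changes and p-values). Neither was used. Of 376 lines, 375 named a microRNA, and 7 microRNAs stood on more than 1 line, of which the line with the largest count was kept. Ages came from the sample labels.

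Counts were filtered by edgeR's filterByExpr (minimum count 10, which kept 99.997% or more of each library's counts), scaled by TMM and fitted in 1 quasi-likelihood model of 12 libraries (edgeR 4.0.16, R 4.3.3, 8 residual degrees of freedom), with Benjamini-Hochberg adjustment over 245 microRNAs and a threshold of 0.05. SE was the fold change divided by the square root of F. Ratios within libraries were tested exactly in Python 3.11.15. The edgeR fit was tested on simulated counts for day 21 against day 1. All arms of the 3 hairpins were named, with the 3 microRNAs most like each major arm (log2 CPM, prior count 1) and the largest arms of each list. The members and lists were chosen with earlier results of these data known.

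Alternatives were DESeq2 1.42.0, RLE factors, total counts, no or a stricter filter, summed lines, only the ages compared, a replicate block and each library left out. Replicates of 1 age differed far beyond counting noise, so none was a repeat of another library's counts. Whether any shared an RNA sample cannot be told from this. Depth ran from 5784056 to 16867232 counts, which leaves arms under about 1 CPM with few counts, and intervals cover counting error only. Positions are from WBcel235, a later build than the authors used. No sequences are printed.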

Additional observations from a re-analysis of the deposited data

How the results depend on the processing

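With scaling by total counts alone, the 245 microRNAs had median log2 fold changes of −0.13, −0.41 and −0.26 on days 7, 14 and 21 against day 1, in place of −0.01, −0.12 and −0.06. Relative to that median, miR-240-3p on day 14 was at 1.05 with TMM and 1.04 without. Under it calls were lost for miR-786-3p on day 7 against day 1 (0.65) and day 14 against day 7 (0.56), for miR-240-3p on day 14 against day 1 (0.63), day 14 against day 7 (0.53), day 21 against day 7 (0.78) and over the 4 ages (F = 3.52), and for miR-60-5p on day 21 against day 7 (−1.63). miR-240-5p on day 21 against day 14 reversed to 0.0019. The arms called were then 1, 3 and 2 for day 7 against day 1, day 14 against day 7 and day 21 against day 7. Summing repeated lines lost miR-786-3p on day 7 against day 1 (0.62, leaving 1 arm) and miR-60-5p on day 21 against day 7 (−1.52). For miR-240-3p on day 14 against day 7, no filter gave 0.59 and at least 10 counts in every library 0.64, neither of them a call. The stricter filter left 3 arms called, since miR-60-5p was not tested under it and miR-240-3p was not past the threshold. Fitting only the 2 ages gave −1.54 for miR-60-5p on day 21 against day 7, no longer called. miR-60-3p on day 21 against day 7 became a call with no filter (−1.16), with DESeq2 (−1.03), with only the 2 ages (−1.03) and without both doubted libraries (−1.31), which lost it on day 14 against day 7 (−1.37) and reversed miR-60-5p (−0.87) and miR-240-5p (0.57) on day 21 against day 14. Without both, miR-60-5p on day 21 against day 7 was at −3.90.

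Same-numbered libraries of different ages did not deviate together (18 pairs, r from −0.65 to 0.42, 5 above 0.1). Their median r was −0.02, beside 0.01 for 36 pairs of different number. With 3 libraries an age this cannot show whether the numbers pair the samples. The r of −0.65 was between day 14 replicate 1 and day 21 replicate 1, which were each nearer to the other's age. The replicate block changed 1 call, miR-60-3p on day 21 against day 7 (−1.19).

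Leaving out each single library in turn, against day 1 on day 7, gave −1.19 to −0.63 for miR-60-5p, −0.039 to 0.25 for miR-240-3p (below 0 only without day 1 replicate 2) and 0.55 to 0.76 for miR-786-3p. miR-240-3p ran from 0.60 to 1.00 on day 14 and 0.60 to 1.20 on day 21, and miR-60-3p from −1.97 to −1.22 on day 21. On day 14 against day 7 the ranges were −1.90 to −1.29 for miR-60-3p, 0.52 to 0.89 for miR-240-3p and 0.72 to 0.92 for miR-786-3p. On day 21 against day 7 they were −3.89 to −1.05 for miR-60-5p, −1.31 to −0.62 for miR-60-3p and 0.52 to 1.12 for miR-240-3p. On day 21 against day 14 they were −0.91 to 1.93 for miR-60-5p, −0.43 to 0.37 for miR-240-5p and −0.24 to 0.37 for miR-240-3p. Arms called ran from 1 to 3, 2 to 5 and 2 to 4 for day 7 against day 1, day 14 against day 7 and day 21 against day 7. The causes were not tested. The few counts of miR-60-5p and miR-786-5p limit what can be said of them. With no filter, miR-786-5p was at 0.56, 1.07 and 1.18 above day 1 (edgeR adjusted p = 0.583, 0.165 and 0.0962).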
